A study of Mus musculus with 9 samples.

Results

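The D-type cyclins, their kinases and the inhibitors that bind them were followed by RNA sequencing in mouse bone marrow-derived macrophages (BMDMs), the precursors from which osteoclasts form. The 10 genes were taken by name from the deposited table: the cyclins Ccnd1, Ccnd2 and Ccnd3, the kinases Cdk4 and Cdk6, the Cip/Kip inhibitors Cdkn1b and Cdkn1c, and the INK4 inhibitors Cdkn2b, Cdkn2c and Cdkn2d. All 10 were among the 28379 genes of the table and among the 17002 genes with enough counts to be tested. Cells of C57BL/6J mice, 10 weeks old per the study's methods, were kept for 48 h in 1 of 3 groups of 3 libraries each. The PBS group received macrophage colony-stimulating factor (M-CSF, 20 ng/ml), which the other groups received too. The RANKL group received RANKL (100 ng/ml), the cytokine that drives osteoclast formation. The RANKL + Vit D + K group received the same RANKL with vitamin D (calcitriol, 1000 nM) and vitamin K (MK4, 20 µM in the sample labels and a higher dose in the study's methods). No group received a single vitamin or vitamins without RANKL. The methods describe libraries made from pooled RNA and do not give the number of mice or cultures behind each library, so the p-values measure the spread among these libraries, which may be technical.

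D-type cyclins carry growth factor signals into the cell cycle. In macrophages M-CSF is the classic inducer of Ccnd1. A D-type cyclin joins CDK4 or CDK6, and the complex phosphorylates the retinoblastoma protein (RB), which then releases the E2F factors that switch on the genes of DNA replication. INK4 proteins (p15, encoded by Cdkn2b, p18 by Cdkn2c and p19 by Cdkn2d) bind CDK4 and CDK6 themselves and keep the cyclins out. Cip/Kip proteins (p27, encoded by Cdkn1b, and p57, by Cdkn1c) bind the assembled cyclin-kinase complexes, above all those of CDK2. Osteoclast precursors are known to divide before they leave the cycle and fuse.

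The start of each cyclin's coding sequence is shown because it holds LxCxE, an RB-binding motif that all D-type cyclins share. The first 60 coding bases, 5′ to 3′, come from the GENCODE M21 transcripts (GRCm38), and capitals mark the codons of the LxCxE motif.
Ccnd1: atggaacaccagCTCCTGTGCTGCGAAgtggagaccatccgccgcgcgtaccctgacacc
Ccnd2: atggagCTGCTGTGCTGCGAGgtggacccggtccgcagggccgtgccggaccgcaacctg
Ccnd3: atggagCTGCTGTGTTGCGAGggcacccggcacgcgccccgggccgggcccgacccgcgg

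The motif lay in codons 5 to 9 of Ccnd1 and in codons 3 to 7 of Ccnd2 and Ccnd3. Over their whole coding sequences, 67.5% of aligned bases were identical between Ccnd1 and Ccnd2, 62.5% between Ccnd1 and Ccnd3 and 68.4% between Ccnd2 and Ccnd3. The kinases Cdk4 and Cdk6 shared 68.8% of their aligned coding bases. The Cip/Kip pair shares the motif that docks on cyclins, marked by capitals in coding bases 61 to 126 of Cdkn1b and 70 to 135 of Cdkn1c.
Cdkn1b: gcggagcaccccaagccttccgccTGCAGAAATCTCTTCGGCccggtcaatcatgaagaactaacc
Cdkn1c: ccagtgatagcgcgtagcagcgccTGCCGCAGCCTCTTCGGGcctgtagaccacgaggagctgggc

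These inhibitors had 63.0% identical aligned coding bases, and the 3 INK4 genes had between 56.4% and 63.1%. The 1 processed pseudogene of the set in the table, Ccnd3-ps, had at most 2 counts in any library. For 6 of the 10 genes the annotation places another gene on the opposite strand within the same bounds, and whether the counting used strand is not given in the sources used here. Among these, Tspan31 overlaps Cdk4 by 641 bases and had mean counts of 6239, 6070 and 6134 in the PBS, RANKL and RANKL + Vit D + K groups. Bysl overlaps Ccnd3 by 361 bases, with mean counts of 1113, 1384 and 1322, and LTO1 overlaps Ccnd1 by 1771 bases, with 1314, 1248 and 685.3.

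Total counts lay between 65915112 and 68229647 per library, so depth was nearly equal. Markers of macrophages (6 genes) had summed FPKM between 26360 and 30590 in PBS, 16650 and 24250 in RANKL and 4527 and 11570 in RANKL + Vit D + K, with no overlap between the groups. Those of osteoclasts (8 genes) summed to between 13.7 and 21.1 FPKM in PBS, 472.3 and 996.3 in RANKL and 51.7 and 85.6 in RANKL + Vit D + K. FPKM counts sequenced fragments relative to the length of the transcript and the depth of the library. The library numbered 2 stood apart within each group. It held the highest FPKM of 17, 18 and 17 of 18 genes of DNA replication and mitosis in the PBS, RANKL and RANKL + Vit D + K groups. For all genes tested the shares in these groups were 41.1%, 47.1% and 55.8%. In all 3 groups at once it was highest for 15.8% of all genes tested. It was also highest for the summed neutrophil markers (9 genes), at 128.5 FPKM against 65.7 and 11.1 in the other PBS libraries, 148.4 against 90.7 and 11.3 in RANKL, and 1.72 against 0.757 and 0.551 in RANKL + Vit D + K, where 6 of the 9 markers were at 0. In bulk samples fewer cells of a type and less RNA per cell cannot be told apart, and the part of these markers in the results below was not tested.

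Levels of the 10 genes differed widely before RANKL was added. In the PBS group Cdk4 had the highest level (24.3 ± 2.07 FPKM, SD, n = 3), its libraries overlapping those of Cdkn1b (21.6 ± 3.17 FPKM). Cdkn2d (8.23 ± 1.44 FPKM), Cdkn2c (5.53 ± 2.29 FPKM) and Ccnd3 (5.39 ± 0.465 FPKM) followed, each overlapping the next. Below them came Cdkn1c (2.31 ± 0.134 FPKM), Cdk6 (1.62 ± 0.420 FPKM), Ccnd1 (0.477 ± 0.104 FPKM), Cdkn2b (0.298 ± 0.180 FPKM) and Ccnd2 (0.0307 ± 0.0135 FPKM). Of these lower genes, only Ccnd1 and Cdkn2b overlapped as neighbours. In RANKL the order began with Cdk4 and Cdkn1b again, which no longer overlapped, and ended with Ccnd2, and every pair of neighbours between Cdkn1b and Cdkn2b overlapped. In RANKL + Vit D + K Cdkn1c stood next below Cdk4, and all neighbours from Cdkn1c down to Ccnd2 overlapped.

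**Figure D1:**
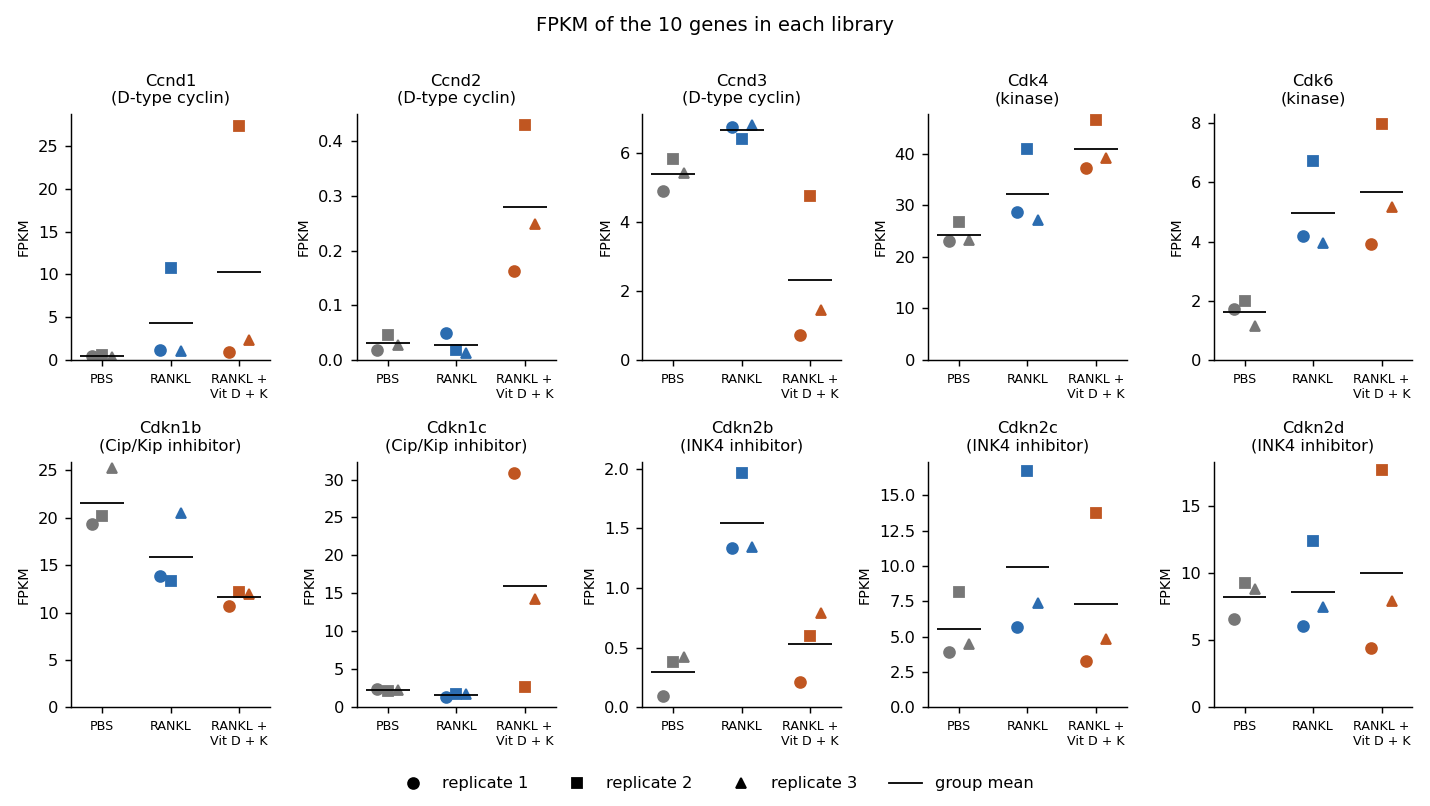
FPKM (vertical axes, from 0, a scale for each gene) of the 10 genes in the PBS, RANKL and RANKL + Vit D + K groups. Each point is a library, its shape the replicate number, and each line the mean of 3 libraries. Replicate 2 (squares) is the highest point of 7, 7 and 8 of the 10 genes in the 3 groups. Of all genes tested it was the highest for 41.1%, 47.1% and 55.8%. In RANKL the count includes Cdkn1c, for which replicates 2 and 3 were nearly level (1.79 and 1.789 FPKM).

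The first comparison asked what RANKL alone did to these genes. RANKL raised 1 of the 10, Cdk6, and lowered none, at a threshold of 0.05 on p-values from edgeR (quasi-likelihood model) adjusted over all genes by Benjamini-Hochberg. Of all genes tested, 2.35% were called higher and 1.26% lower. The median log2 fold change of the 10 genes was 0.23, beside -0.04 for all genes tested. The FPKM of the groups did not overlap for 6 of the 10 genes (Ccnd1, Ccnd3, Cdk4, Cdk6, Cdkn1c and Cdkn2b), against 35.2% of all genes tested.

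Cdk6, the partner kinase prominent in blood cells, lies at chr5:3341485-3473180 (+ strand). Its FPKM was 1.71, 1.99 and 1.16 in the PBS libraries, and 4.20, 6.71 and 3.95 in the RANKL libraries. Every RANKL library was above every PBS library, and replicate 2 was the highest of each group. The change was 2.79-fold (log2 1.48 ± 0.26, SE, adjusted p = 0.0199, edgeR). Without PBS replicate 1 or 3, or without RANKL replicate 1 or 2, the fold change lay between 1.25 and 1.58 on the log2 scale and the adjusted p between 0.0572 and 0.0903.

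Cdk4, the most abundant of the 10 in every group by FPKM, lies at chr10:127063534-127067920 (+ strand). Its FPKM went from 23.1, 26.7 and 23.2 in PBS to 28.6, 41.0 and 27.2 in RANKL. The libraries did not overlap in FPKM but did after edgeR's scaling, and the change of 1.21-fold did not pass the test (95% interval 0.981 to 1.49-fold, adjusted p = 0.321).

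Ccnd1 (chr7:144929931-144939925, - strand), the cyclin that mitogens induce most, had 0.453, 0.590 and 0.387 FPKM in PBS and 1.15, 10.8 and 1.10 FPKM in RANKL. All RANKL libraries were above all PBS libraries, yet RANKL replicate 2 stood 9.57-fold above the mean of the other RANKL libraries. The fitted change was 7.99-fold, with a 95% interval of 1.13 to 56.3-fold and an adjusted p of 0.239 by edgeR. Without RANKL replicate 2 it fell to 1.15 on the log2 scale, from 3.00. Such spread was rare, since 99.8% of the 11279 genes with a mean of at least 1 FPKM in RANKL had a smaller SD of log2(FPKM + 0.1).

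Ccnd3 (chr17:47505051-47599689, + strand), the D-type cyclin best known from blood cells, was by contrast steady within RANKL. It had 4.91, 5.84 and 5.42 FPKM in PBS and 6.77, 6.42 and 6.83 FPKM in RANKL, and 7.89% of genes had a smaller spread in RANKL, against 50.5% in PBS and 98.4% in RANKL + Vit D + K. The change was 1.14-fold (95% interval 0.537 to 2.41-fold, adjusted p = 0.891, edgeR). Ccnd2 (chr6:127125162-127152193, - strand) was close to the limit of detection, with 13, 34 and 22 counts in PBS and 35, 14 and 10 counts in RANKL. These counts overlapped, and the fold change of 0.785 was not called (adjusted p = 0.814, edgeR).

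Among the inhibitors, Cdkn2b (chr4:89306299-89311039, - strand), which encodes p15, differed most. It had 10, 40 and 44 counts in PBS (0.0919, 0.378 and 0.424 FPKM) and 139, 204 and 146 counts in RANKL (1.33, 1.96 and 1.34 FPKM), so the groups did not overlap. The fitted change of 4.68-fold (log2 2.23 ± 0.60, SE) had an adjusted p of 0.0809 by edgeR, above the threshold. With the replicate number as a block, which the pairing of PBS and RANKL libraries allows, the log2 fold change was 2.47 and the adjusted p was 0.0382. DESeq2 gave 2.26 with an adjusted p of 0.00338.

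Cdkn1b (chr6:134920401-134925513, + strand), encoding p27, had 19.4, 20.1 and 25.2 FPKM in PBS and 13.8, 13.4 and 20.6 FPKM in RANKL. Replicate 3 was the highest of both groups, and the groups overlapped through it. The log2 fold change was -0.56 ± 0.20 (SE, adjusted p = 0.167, edgeR), and -0.81 without RANKL replicate 3, where it was called (adjusted p = 0.0474). Cdkn1c (chr7:143458339-143461050, - strand), encoding p57, was even within both groups, at 2.46, 2.20 and 2.27 FPKM in PBS and 1.42, 1.79 and 1.79 FPKM in RANKL. The difference of -0.60 ± 0.67 (log2, SE) was not called (adjusted p = 0.705, edgeR).

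Cdkn2c (chr4:109660876-109667189, - strand) and Cdkn2d (chr9:21288410-21291308, - strand), the INK4 genes with the higher levels, varied with the replicate number. Cdkn2c had 3.93, 8.15 and 4.50 FPKM in PBS and 5.69, 16.7 and 7.41 FPKM in RANKL. Cdkn2d had 6.59, 9.27 and 8.83 FPKM in PBS and 6.05, 12.4 and 7.49 FPKM in RANKL. Replicate 2 was the highest in each of these 4 sets, and the groups overlapped for both genes (log2 fold changes 0.70 ± 0.53 and -0.07 ± 0.41, SE, adjusted p = 0.536 and 0.955, edgeR). Between same-numbered libraries, Cdkn2c was higher in RANKL in all 3 pairs, as Cdkn1b was lower in all 3. Neither passed the threshold with the replicate block (adjusted p = 0.0795 and 0.0566, edgeR), which covered the vitamin libraries too.

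The second comparison asked what the vitamins did on top of RANKL. Of the 10 genes, 3 rose (Ccnd2, Cdk4 and Cdkn1c) and 1 fell (Ccnd3), while 16.4% of all genes tested were called higher and 17.2% lower. The largest changes were those of a cyclin and of an inhibitor, at about the same size. The median log2 fold change was 0.33 over the 10 genes and -0.04 over all genes tested. In FPKM, 5 of the 10 genes did not overlap between the groups, against 46.2% of all genes tested. The RANKL libraries are those of the first comparison, so a high RANKL value raises one difference and lowers the other.

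**Figure D2:**
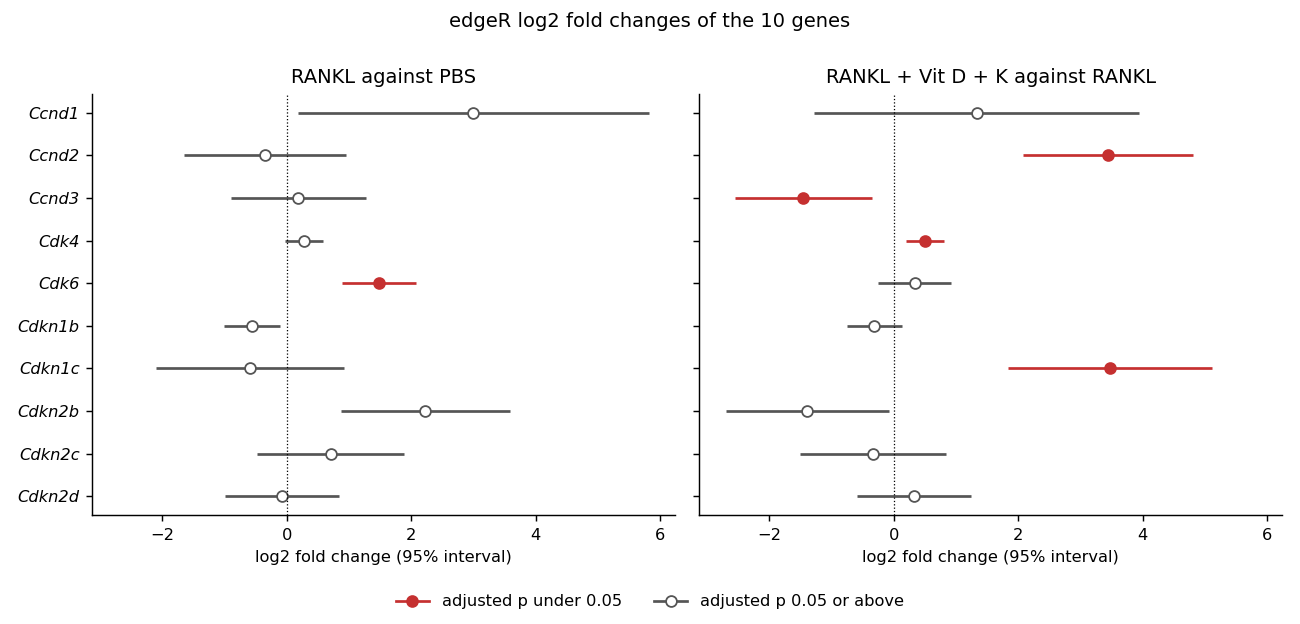
log2 fold change by edgeR (horizontal axis) with its 95% interval for the 10 genes, RANKL against PBS on the left and RANKL + Vit D + K against RANKL on the right. Filled red points passed an adjusted p of 0.05, 1 on the left (Cdk6) and 4 on the right (Ccnd2, Ccnd3, Cdk4 and Cdkn1c), and the intervals of Ccnd1 are the widest in both panels.

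Ccnd2, the cyclin nearly silent without the vitamins, had 115, 312 and 176 counts in RANKL + Vit D + K against 35, 14 and 10 counts in RANKL. In FPKM these were 0.162, 0.429 and 0.249 against 0.0490, 0.0190 and 0.0127. The groups lay far apart, and the rise was 10.9-fold (log2 3.44 ± 0.60, SE, adjusted p = 0.00376, edgeR). It was called under all 21 alternatives tried, including those without replicate 2. Without RANKL replicate 1, the highest of its group, it was 4.19 on the log2 scale. On the scale of log2(FPKM + 0.1) the difference was 1.53 and on that of log2(FPKM + 1) 0.31, scales that understate the change of a gene at so low a level. Its level stayed the lowest of the 3 cyclins on the FPKM scale in every library.

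Ccnd3 moved the other way. Its FPKM was 0.738, 4.77 and 1.45 in RANKL + Vit D + K, all below the lowest RANKL library (6.42 FPKM). The fall was 2.73-fold (log2 -1.45 ± 0.49, SE, adjusted p = 0.0473, edgeR). Replicate 2 with vitamins lay 4.36-fold above the mean of replicates 1 and 3, and without it the log2 fold change was -2.40 (adjusted p = 9.58e-05). The call was lost, with adjusted p between 0.0723 and 0.160, when any PBS or RANKL library or vitamin replicate 1 or 3 was left out, while the log2 fold change stayed between -1.51 and -1.04. It was also lost without a filter on low counts (adjusted p = 0.0784) and with only the 2 groups compared (adjusted p = 0.103).

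Ccnd1 had 0.944, 27.4 and 2.37 FPKM with vitamins, so that replicate 2 alone held 29.0 times the level of replicate 1. The groups overlapped, the fitted change was 2.51-fold with a 95% interval of 0.409 to 15.4-fold, and it was not called (adjusted p = 0.408, edgeR). Without vitamin replicate 2 its direction turned, to -1.12 on the log2 scale, and without replicate 2 of both groups it was 0.69.

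The sum over the 3 cyclins overlapped between the vitamin libraries and each other group. The summed FPKM was 5.39, 6.48 and 5.83 in PBS, 7.96, 17.2 and 7.94 in RANKL, and 1.84, 32.6 and 4.07 in RANKL + Vit D + K. With vitamins the sum of replicates 1 and 3 lay below every library of the other groups and that of replicate 2 above all of them. Ccnd3 made up 91.4 ± 1.36% (SD, n = 3) of the sum in PBS, 69.5 ± 27.8% in RANKL and 30.1 ± 13.6% in RANKL + Vit D + K, and Ccnd1 8.05 ± 1.28%, 30.3 ± 28.0% and 64.5 ± 17.3%. The share of Ccnd3 was below that of Ccnd1 in all 3 vitamin libraries and in RANKL replicate 2, and above it in the other 5. The exact two-sided permutation test of 3 libraries against 3 cannot give less than p = 0.1. The shares of both genes reached this between PBS and RANKL + Vit D + K and also between PBS and RANKL. So did the cyclin sum between PBS and RANKL (each 0.233 after adjustment over 21 comparisons of sums and shares).

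**Figure D3:**
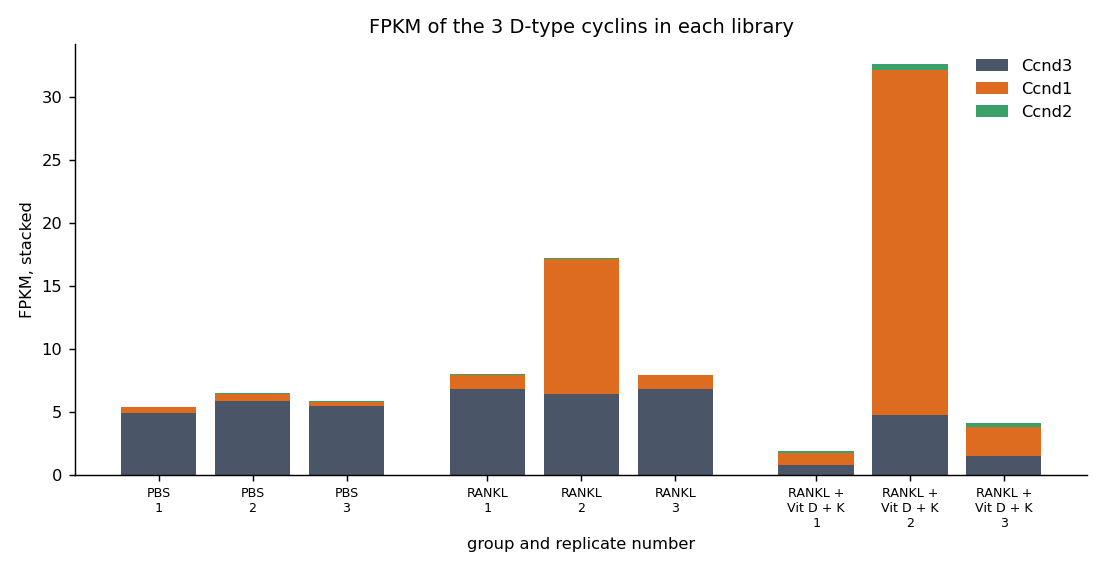
FPKM of Ccnd3, Ccnd1 and Ccnd2 stacked for each of the 9 libraries (vertical axis from 0), by group and replicate number. Ccnd3 fills most of the bar in the PBS libraries, and Ccnd1 most of it in the vitamin libraries, where the totals run from 1.84 to 32.6 FPKM.

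Of the kinases, Cdk4 had 37.2, 46.6 and 39.3 FPKM with vitamins, against 28.6, 41.0 and 27.2 in RANKL. Its FPKM overlapped through RANKL replicate 2. On edgeR's scale it did not, and the rise was 1.41-fold (log2 0.50 ± 0.13, SE, adjusted p = 0.0205). The call was lost with upper-quartile normalization (log2 0.41, adjusted p = 0.0511) and without RANKL replicate 1 or 3 or vitamin replicate 1 or 3 (adjusted p between 0.0549 and 0.0872). It was also lost with limma on log2(FPKM + 0.1) (log2 0.36, adjusted p = 0.117), on log2(FPKM + 1), without a filter and with only the 2 groups compared. Cdk6 had 3.93, 7.97 and 5.16 FPKM with vitamins, which overlapped the RANKL libraries, and its log2 fold change of 0.33 ± 0.26 was not called (SE, adjusted p = 0.350, edgeR).

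Cdkn1c rose 11.1-fold (log2 3.47 ± 0.72, SE, adjusted p = 0.00747, edgeR), about as much as Ccnd2. The ratio of mean FPKM was 9.59 for Cdkn1c and 10.4 for Ccnd2. Its FPKM with vitamins was 30.9, 2.71 and 14.3, against at most 1.79 in RANKL, so every vitamin library was higher although they differed 11.4-fold among themselves. It was called under all 21 alternatives. Without vitamin replicate 1 the log2 fold change was 2.50, and on the scales of log2(FPKM + 0.1) and log2(FPKM + 1) the difference was 2.62 and 2.20. The lowest library was replicate 2, in which Ccnd1, Ccnd2, Ccnd3, Cdk4, Cdk6, Cdkn1b, Cdkn2c and Cdkn2d were at their highest within the vitamin group, as were 55.8% of all genes tested. Cdkn1b itself had 10.7, 12.2 and 12.01 FPKM, below all RANKL libraries in FPKM, but with a log2 fold change of -0.32 ± 0.20 that was not called (SE, adjusted p = 0.245, edgeR).

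Cdkn2b had 23, 64 and 82 counts with vitamins (0.213, 0.595 and 0.787 FPKM), all below the 139 counts of the lowest RANKL library. Its log2 fold change of -1.39 ± 0.58 was not called (SE, adjusted p = 0.0954, edgeR), though DESeq2 called it (-1.41, adjusted p = 0.0455). Its order across the groups thus ran from PBS and the vitamin group, which overlapped, up to RANKL. Cdkn2c had 3.28, 13.8 and 4.84 FPKM with vitamins and Cdkn2d 4.47, 17.7 and 7.92 FPKM. Both overlapped RANKL, with log2 fold changes of -0.33 ± 0.52 and 0.32 ± 0.41 (SE, adjusted p = 0.657 and 0.574, edgeR). Without vitamin replicate 2 that of Cdkn2d turned to -0.26, and without RANKL replicate 2 that of Cdkn2c turned to 0.20.

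Against PBS, which shares its libraries with the first comparison, the vitamin group had 5 of the 10 genes higher and 1 lower, while 19.8% of all genes tested were called higher and 21.0% lower. In FPKM 7 of the 10 did not overlap, against 52.5% of all genes tested. The kinases rose, Cdk4 by 1.71-fold (95% interval 1.38 to 2.10-fold, adjusted p = 0.00244) and Cdk6 by 3.51-fold (2.31 to 5.33-fold, adjusted p = 0.00118). Both calls held under all 21 alternatives. Ccnd2 rose 8.52-fold (adjusted p = 0.00377) and Cdkn1c 7.32-fold (adjusted p = 0.0113), the latter 1.96 on the log2 scale without vitamin replicate 1, against 2.87 with it. Cdkn1b fell 1.83-fold (95% interval of the fold change 0.401 to 0.744, adjusted p = 0.00799, edgeR).

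Ccnd1 rose 20.1-fold in the same comparison, with an interval from 2.55 to 157.9-fold and an adjusted p of 0.0277 by edgeR. Without vitamin replicate 2 the log2 fold change was 1.87, against 4.33 with it, and was not called (adjusted p = 0.114), and without any one of the PBS libraries it was not called either (adjusted p between 0.0738 and 0.0901). With replicate 2 left out of all groups it was 2.03 and called (adjusted p = 0.00446). Limma did not call it on log2(FPKM + 0.1) (2.86, adjusted p = 0.0838) or on log2(FPKM + 1) (1.95). Ccnd3 stayed just above the threshold (log2 -1.27 ± 0.49, SE, adjusted p = 0.0649) and was called without vitamin replicate 2 (-2.21, adjusted p = 0.000136). Cdkn2b, Cdkn2c and Cdkn2d overlapped PBS and were not called (adjusted p = 0.284, 0.607 and 0.651, edgeR).

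The replicate numbered 2 was the highest of its group for 5 of the 10 genes in all 3 groups at once: Ccnd1, Cdk4, Cdk6, Cdkn2c and Cdkn2d. It was so for 15.8% of all genes tested and for 16 of the 18 genes of DNA replication and mitosis. For Ccnd1 its excess over the mean of replicates 1 and 3 was 1.40-fold in PBS, 9.57-fold in RANKL and 16.5-fold in RANKL + Vit D + K. For Cdkn2c it was 1.94-fold, 2.55-fold and 3.39-fold. For Cdk4 it was 1.16-fold, 1.47-fold and 1.22-fold. For Cdkn1c the ratio was 0.931-fold, 1.12-fold and 0.120-fold, and replicate 2 was the lowest in PBS and in RANKL + Vit D + K. In RANKL it was level with replicate 3 (1.79 and 1.789 FPKM, 275 and 286 counts). Whether these libraries differ in cell makeup, culture or handling was not tested.

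**Figure D4:**
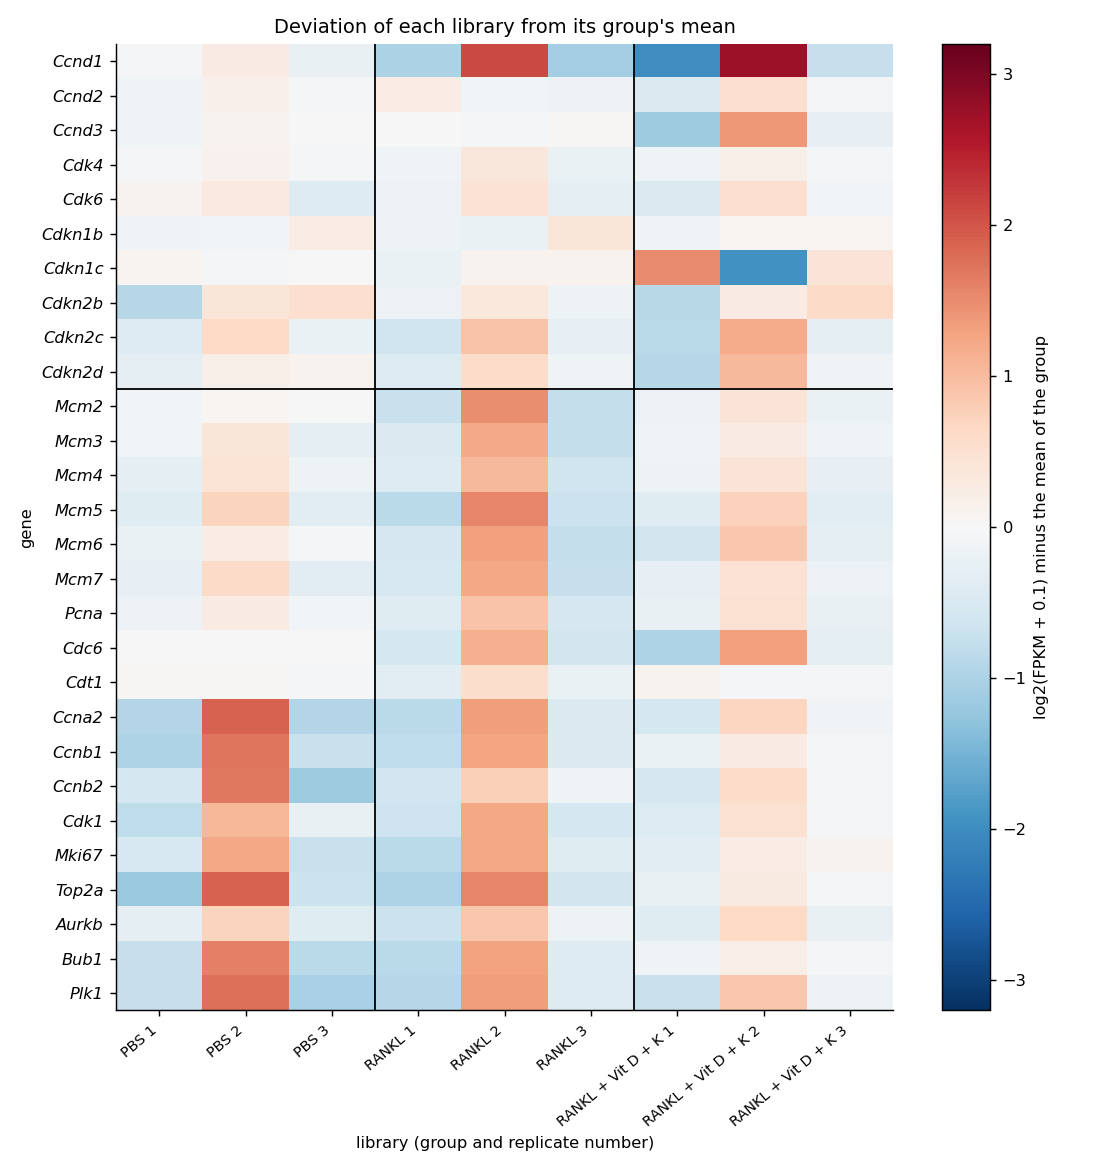
Deviation of each library from its group's mean, in log2(FPKM + 0.1), for the 10 genes (above the horizontal line) and the 18 genes of DNA replication and mitosis (below it), with the 3 groups parted by vertical lines. Replicate 2 is the highest library of all 3 groups for 16 of the 18 genes below the line, as for Ccnd1, Cdk4, Cdk6, Cdkn2c and Cdkn2d, while Cdkn1c is blue in vitamin replicate 2.

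The genes around the 10 were taken as lists. None of the 17 genes of the RB-E2F axis and none of the 18 of replication and mitosis was called between RANKL and PBS, although all 18 of the latter had a fold change above 0 (median log2 1.29, beside -0.04 for all genes). With vitamins against RANKL, E2f3, an activator of replication genes, rose (0.87 ± 0.14, SE, adjusted p = 0.00296), and Rbl2, a relative of RB (-0.38 ± 0.12, adjusted p = 0.0323), and Tfdp2, a partner of the E2Fs (-0.49 ± 0.16, adjusted p = 0.0445, edgeR), fell. Of the replication list 1 gene rose, the replication licensing factor Cdt1 (1.45 ± 0.21, SE, adjusted p = 0.00178, edgeR), with a list median of 0.80. These counts, 1 higher and 2 lower of 17 and 1 higher of 18, stand beside 16.4% of all genes tested higher and 17.2% lower. Against PBS the vitamin group had 13 of these 18 higher and none lower (median 2.01), and 5 of the 17 RB-E2F genes higher and 3 lower, beside 19.8% of all genes tested higher and 21.0% lower.

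Of 10 genes for turnover and activation of these proteins, Fbxo31, which marks cyclin D1 for degradation, fell with RANKL (log2 -0.99 ± 0.22, SE, adjusted p = 0.0415) and further with vitamins (-1.15 ± 0.22, adjusted p = 0.00514, edgeR). Gsk3b, the kinase that phosphorylates cyclin D1 before its export and breakdown, rose with vitamins (1.01 ± 0.21, adjusted p = 0.00756), as did Mnat1, a subunit of the CDK-activating kinase (0.65 ± 0.21, adjusted p = 0.0424, edgeR). The list thus had 1 of 10 lower with RANKL, where 1.26% of all genes tested were lower, and 2 higher and 1 lower with vitamins, shares near those of all genes. Of 9 transcriptional regulators, Myc rose with RANKL (3.93 ± 0.72, SE, adjusted p = 0.0217) and again with vitamins (2.37 ± 0.65, adjusted p = 0.0219, edgeR). With vitamins 4 of the 9 rose and none fell, beside 16.4% of all genes tested higher and 17.2% lower. Among the 4 were Jun, a subunit of AP-1 (2.34 ± 0.27, adjusted p = 0.000773), and Bmi1, a Polycomb repressor known to silence the INK4 locus (1.01 ± 0.18, adjusted p = 0.00422, edgeR). Fos, another AP-1 subunit of the list, pointed lower with vitamins but was not called (-1.89 ± 1.48, SE, adjusted p = 0.353, edgeR).

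Myc, Cdk4 and Cdk6 were each higher with vitamins than in PBS, and the promoters of the kinases are shown with the letters CACGTG, the E-box to which MYC binds, in capitals. RefSeq windows from 250 bases before to 50 after a start site (GRCm38.p6) were at hand for 7 of the 10 genes, 9 windows in all, and were searched on both strands. Ccnd1, Ccnd2 and Cdkn1c had no window and were not searched.
Cdk4, chr10:127063285-127063584 (+ strand): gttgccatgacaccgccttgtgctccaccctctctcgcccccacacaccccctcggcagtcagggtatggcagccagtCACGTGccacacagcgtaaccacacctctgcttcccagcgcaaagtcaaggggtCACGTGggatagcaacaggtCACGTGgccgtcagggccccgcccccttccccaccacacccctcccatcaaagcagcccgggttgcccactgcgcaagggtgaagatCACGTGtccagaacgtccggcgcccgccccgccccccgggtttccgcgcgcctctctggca
Cdk6, chr5:3343643-3343942 (+ strand): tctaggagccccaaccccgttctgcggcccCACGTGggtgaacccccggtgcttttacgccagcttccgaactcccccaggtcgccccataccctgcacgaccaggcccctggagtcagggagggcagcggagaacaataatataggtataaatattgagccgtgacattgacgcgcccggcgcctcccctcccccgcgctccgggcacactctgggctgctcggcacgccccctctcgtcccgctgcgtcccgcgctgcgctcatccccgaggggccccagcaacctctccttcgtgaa

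The Cdk4 window held 4 of these E-boxes, starting 172, 118, 98 and 11 bases before the start site, and the Cdk6 window 1, at 220 bases before it. Of 32851 mouse promoter windows of the same length, 7.15% held at least 1 and 0.0244%, or 8 windows, held 4 or more. One of the windows of Cdkn2c also held 1, after its start site. No window of the 7 genes held the letters TGANTCA searched for AP-1 (7.81% of all windows), TTTGGCGC (0.514%) or TTTCCCGC (1.07%) searched for E2F, or GNTCANNNNGNTCA searched for the vitamin D receptor (0.7%). These are matches of letters, and no binding was measured.

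The pattern of each cyclin over the 9 libraries was matched with that of the other tested genes with a mean of at least 1 FPKM, as a description over libraries that share groups and replicate numbers. Ccnd1 was most like Ell2, which encodes an elongation factor (Pearson r of log2 CPM 0.992 over 9 libraries), and Cbx5, which encodes a heterochromatin protein (0.981). Ccnd3 was most like Sfxn2, a mitochondrial carrier gene (0.995), and Gm6548 (0.993), and Ccnd2 was most like Glrp1 (0.947) and Lrif1 (0.942). The range of Ccnd1 was far wider than that of its closest match, since Ell2 ran from 3.06 to 9.93 FPKM and Ccnd1 from 0.387 to 27.4 FPKM. Sfxn2 ran from 0.322 to 2.56 FPKM, and was lowest in vitamin replicates 1 and 3, as Ccnd3 was.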

How the data were processed

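RNA from 9 BMDM libraries (3 groups of 3, named by group and replicate in the labels) was selected for poly(A) and sequenced in pairs of reads. The authors deposited 1 table with whole-number counts per gene, not normalized, and FPKM values, which the authors scaled to transcript length and library size. The submitters' processing notes name cutadapt 1.9, HISAT2 2.0.4, StringTie 1.3.4d, edgeR and the build hg38, but gene identifiers and coordinates are mouse. The bounds of 7 of the 10 genes equal GENCODE M21 (GRCm38), and those of the other 3 differ. edgeR 4.0.16 (in R 4.3.3) was run on the counts with filterByExpr, TMM, 1 quasi-likelihood model of all 9 libraries, Benjamini-Hochberg adjustment over 17002 of 28379 genes and a threshold of 0.05. The SE is the log2 fold change divided by the root of F. Values of 4 occurred 2.22 times as often as the average of values of 3 and 5 in the count columns, so that a single count may not be a single read, and any floor (3 counts, at most 4.55e-06% of a library) covers counting error only. Levels of different genes were compared in FPKM only.

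The genes, lists and tests were chosen with earlier results of these data known. Named were the 10 genes, at most 3 genes a direction of each list past the threshold in RANKL against PBS and in vitamins against RANKL, and the 2 genes most like each cyclin. Fos, which was not called, was named beside Jun. The deviations of same-numbered PBS and RANKL libraries from their group means correlated at 0.122, 0.219 and 0.155 over genes, all above 0.1, so those numbers were taken as pairs, and those of the vitamin libraries were not. Alternatives were DESeq2 1.42.0, limma 3.58.1 on log2(FPKM + 0.1) and log2(FPKM + 1), voom with quality weights, other scalings and no filter. Others were only the 2 groups compared, the replicate block over all 9 libraries, and each library left out. Replicate 2 left out of 2 or 3 groups and counts divided by 4 were added after the data were seen. The edgeR and DESeq2 tests were checked, for RANKL against PBS, on counts drawn with known changes. Many of these changes, above all the smaller ones, were not called, so a gene that was not called may still differ.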

Additional observations from a re-analysis of the deposited data

How the results depend on the processing

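Over 21 alternatives for each of 30 fold changes (10 genes in 3 comparisons), 564 of 630 values kept direction and side of the threshold, 29 lost the call, 22 gained it and 15 turned direction. In RANKL against PBS (1 gene called in the report), DESeq2, limma on log2(FPKM + 0.1) and on log2(FPKM + 1), voom with quality weights, only the 2 groups compared, the replicate block and counts divided by 4 each called 2 of the 10 (Cdk6 and Cdkn2b), and leaving out 1 library gave between 0 and 2. With vitamins against RANKL (4 called), no filter and only the 2 groups compared each called 2 (Ccnd2 and Cdkn1c), and leaving out 1 library gave between 2 and 4. With vitamins against PBS (6 called) the alternatives called between 5 and 8. The cause of these changes was not tested.

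The vitamin libraries share only a number with the RANKL libraries (correlations of deviations 0.00625, 0.0428 and 0.107), and not every one correlated best with its own number. The replicate block called 5 of the 10 genes between them (4 without it), adding Cdkn2b (log2 -1.60, adjusted p = 0.0376, edgeR), and 7 against PBS (6 without it), adding Ccnd3 (-1.49, adjusted p = 0.0405). Beside these and Cdkn2b in RANKL against PBS, it changed no call of the 10 genes.

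Between RANKL and PBS 614 genes were called among all tested, 1611 by DESeq2, 3006 by voom with quality weights, 1736 with only the 2 groups, 1382 without replicate 2 of both RANKL groups, 1740 without replicate 2 of all groups, and between 126 and 1903 without 1 library. With vitamins against RANKL 5725 were called, 10698 by voom with quality weights, 8603 and 8952 without replicate 2 of both RANKL groups or of all groups, and between 3199 and 8259 without 1 library. Against PBS 6932 were called, and 10899 by voom with quality weights. Limma on log2(FPKM + 0.1) moved the median over all genes by 0.12 on the log2 scale (RANKL against PBS) and by -0.13 (vitamins against RANKL), and the share of higher genes among the latter's calls from 48.8% to 36.2%. None of the called genes of the family turned direction under any scaling.

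Directions turned only for genes that were not called. With 1 library left out, the log2 fold changes that turned lay, in RANKL against PBS, between -1.10 and 0.0618 for Ccnd2 and between -0.37 and 0.12 for Cdkn2d. In vitamins against RANKL they lay between -1.12 and 3.18 for Ccnd1 and between -0.26 and 0.65 for Cdkn2d, which turned without vitamin replicate 2, and between -1.06 and 0.20 for Cdkn2c, which turned without RANKL replicate 2. In vitamins against PBS they lay between -0.35 and 0.79 for Cdkn2c and between -0.32 and 0.64 for Cdkn2d. In the other alternatives, Ccnd2 turned in RANKL against PBS without replicate 2 of all groups (0.23) and Cdkn2d under limma on log2(FPKM + 0.1) (0.0195) and on log2(FPKM + 1) (0.0215). In vitamins against PBS, Cdkn2c (-0.35) and Cdkn2d (-0.32) turned without replicate 2 of both RANKL groups, and Cdkn2d (-0.25) without replicate 2 of all groups.

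The log2 ratio of the summed kinase FPKM, RANKL over PBS, was 0.52, and was 0.97 as a mean of log2(FPKM + 0.1) and 1.61 for Cdk6 alone. That of the Cip/Kip sum, vitamins over RANKL, was 0.65, and was 3.26 for Cdkn1c alone. In these sums Cdk4 and Cdkn1b, the members with the higher level in PBS and RANKL, differed less between the groups compared. For the other sums in these 2 comparisons, the only ones recomputed, the alternatives moved the log2 ratio by less than the spread between libraries. Within that spread, the ratio of the D-type cyclins, vitamins over RANKL, went from 0.22 to -1.90 without vitamin replicate 2 and to -1.37 without Ccnd1. With 3 libraries a group, the fold changes of Ccnd1 had the widest 95% intervals of the 10 genes.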

Other observations

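Within the RANKL + Vit D + K group the libraries kept 1 order for Ccnd1, Ccnd2, Ccnd3, Cdk4, Cdk6, Cdkn1b, Cdkn2c and Cdkn2d (replicate 2 above 3 above 1) and the opposite order for Cdkn1c (replicate 1 above 3 above 2). Replicate 2 was the highest of this group for 55.8% of all genes tested, and the share of genes with the full order was not counted. For Cdkn1b replicates 2 and 3 were nearly level (12.19 and 12.01 FPKM). In FPKM, Cdkn1c was 30.9, 14.3 and 2.71 in replicates 1, 3 and 2, while Ccnd3 was 0.738, 1.45 and 4.77 and Ccnd1 0.944, 2.37 and 27.4. The summed markers of macrophages ran in the order of the cyclins, at 4527, 6209 and 11570 FPKM in replicates 1, 3 and 2. Those of osteoclasts, at 75.6, 51.7 and 85.6 FPKM, and of neutrophils, at 0.757, 0.551 and 1.72 FPKM, did not, although replicate 2 was the highest for both. With 3 libraries no test of this order was made. In the PBS group Cdkn1c differed by only 1.12-fold in FPKM between its highest and lowest library, and in RANKL by 1.27-fold.

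Markers of other cell types stayed near 0 in all 9 libraries: the summed FPKM was at most 0.795 for 5 of 6 B cell markers used here, 0.238 for 2 of 3 erythroid, 0.287 for 5 stromal, 0.0633 for 1 of 3 mast cell or basophil and 0.276 for 2 dendritic cell markers. The 3 T cell markers and Mycn were not analysed here.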
